A study of Mus musculus with 12 samples.

Results

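The genes described here are the 71 of 19938 genes on the array whose symbols carry the names of the interferon-induced families: Ifi, Ifit and Ifitm genes, interferon regulatory factors (Irf), Isg, Oas, Gbp, Irgm, Iigp and Mx genes, Stat2, Ifih1, Rsad2, Usp18, Zbp1, Xaf1 and the immunoproteasome subunits Psmb8 and Psmb9. The rule reads symbols and not measured values, but the families were chosen with earlier results of these data known. The names also bring in relatives that are not known for induction by interferon, such as Irf2bp1, Irf2bp2 and Irf2bpl, which encode IRF2-binding corepressors and their like, Isg20l2, a nucleolar exonuclease, and Ifitm5, a bone protein. Of the 71 members, 51 had a mean level in the upper 75% of probe sets and were tested, and the other 20 were too dim.

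The ascending aorta was taken from mice at 6 weeks of age, and its RNA was measured on 12 one-colour arrays, 3 in each of 4 groups. All 4 groups carried Myh11-CreERT2, a tamoxifen-inducible Cre recombinase driven by the smooth muscle myosin heavy chain promoter, and Tgfbr2f/f, which encodes the ligand-binding TGF-beta receptor and is flanked here by loxP sites. The wild-type control group (Myh11-CreERT2.Tgfbr2f/f Control) and the mutant control group (Fbn1C1039G/+.Myh11-CreERT2.Tgfbr2f/f Control) received corn oil vehicle, and the wild-type knockout and mutant knockout groups of the same 2 genotypes received 1 mg of tamoxifen by intraperitoneal injection on each of 5 days from 4 weeks of age. Wild-type and mutant refer here to Fbn1, the fibrillin-1 gene, of which the mutant animals carried 1 altered copy, the allele Fbn1C1039G. Every knockout animal was thus also a tamoxifen-treated animal, no group was given tamoxifen without the floxed alleles or without Cre, and the effects of the drug, of Cre activity and of the loss of Tgfbr2 cannot be told apart. It is not stated that the 3 arrays per group represent separate animals. The p-values set differences between groups only against the scatter among these arrays, which may be technical.

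Interferons are secreted signals that cells release on sensing viral or misplaced nucleic acid. Type I interferon binds the receptor pair of Ifnar1 and Ifnar2, type II interferon binds Ifngr1 and Ifngr2, and both act through Janus kinases on STAT transcription factors. Factors of this pathway, STAT2 and IRF9 among them, bind the interferon-stimulated response element (ISRE) in promoters, the gamma-activated sequence (GAS) is the element of the type II response, and the genes that follow encode antiviral enzymes, GTPases, nucleic acid sensors and parts of the antigen-processing machinery. In the vessel wall these genes can be read out from smooth muscle, endothelium, fibroblasts and resident macrophages, so a whole-tissue measurement sums over all of them.

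The arrays were alike in brightness, with median intensities of 301 to 334, and their log2 values correlated at 0.995 to 0.997 within groups and 0.991 to 0.996 between groups. The Tgfbr2 probe set itself differed by -0.08 ± 0.05 (log2, standard error) in the wild-type (adjusted p = 0.324, limma) and by 0.04 ± 0.05 in the mutant (adjusted p = 0.594), so it did not separate knockout from control. Pmepa1, a target gene of TGF-beta signalling chosen after its values were seen, fell by 0.40 and by 0.55 on the log2 scale, with all knockout arrays below all control arrays in both genotypes. Smooth muscle markers were abundant on all arrays, with Myh11 between 13.97 and 14.15 and Acta2 between 14.53 and 14.60. In bulk tissue, fewer cells of a type and less RNA per cell cannot be told apart, and this holds for all values that follow.

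Promoter windows from RefSeq (GRCm38.p6), running from 250 bases before to 50 bases after the annotated start, were at hand for 55 of the 71 members. The ISRE core was searched as GAAA, any 2 bases and GAAA again, on either strand (so also as TTTC, any 2 bases and TTTC), and the GAS core as the palindrome TTCNNNGAA, with overlapping matches counted separately. The ISRE core was found in 25 of these 55 members, against 3.99% of the 27025 genes in the promoter table, and the GAS core in 14 of 55, against 9.55%. A match is a description of the letters, not a site or a cause. Shown here are the windows of 7 members with an ISRE core: 6 that rose with knockout in at least 1 genotype, and Ifit3, whose level followed single arrays. Irf5, Irf8, Oasl1, Isg20, Ifitm10, Psmb8 and Psmb9 also rose in at least 1 genotype, and their windows hold no ISRE core. Ifi27l2a and Ifi27l2b rose and had no window. ISRE matches are in capitals, and each is numbered from the annotated start (negative before it) at its first base on the gene's strand. The sequences run 5′ to 3′ on that strand. GAS matches are not marked, and among the windows shown only that of Ifitm3 holds 1.
Ifit1, chr19:34640639-34640938, plus strand, matches at -104 and -85: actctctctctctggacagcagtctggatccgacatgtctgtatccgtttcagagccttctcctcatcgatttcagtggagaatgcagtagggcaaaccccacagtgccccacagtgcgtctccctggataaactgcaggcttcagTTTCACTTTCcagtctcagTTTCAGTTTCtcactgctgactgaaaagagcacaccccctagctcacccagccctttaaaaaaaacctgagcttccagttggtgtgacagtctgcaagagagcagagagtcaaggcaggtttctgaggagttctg
Ifit3, chr19:34583279-34583578, plus strand, matches at -156 and -122: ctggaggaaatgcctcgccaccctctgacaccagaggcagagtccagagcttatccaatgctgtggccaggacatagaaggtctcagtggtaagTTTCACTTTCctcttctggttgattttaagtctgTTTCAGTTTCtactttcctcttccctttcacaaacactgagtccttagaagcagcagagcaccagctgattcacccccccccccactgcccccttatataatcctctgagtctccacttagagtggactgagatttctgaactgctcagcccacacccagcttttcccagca
Ifi203, chr1:173942443-173942742, minus strand, match at -35: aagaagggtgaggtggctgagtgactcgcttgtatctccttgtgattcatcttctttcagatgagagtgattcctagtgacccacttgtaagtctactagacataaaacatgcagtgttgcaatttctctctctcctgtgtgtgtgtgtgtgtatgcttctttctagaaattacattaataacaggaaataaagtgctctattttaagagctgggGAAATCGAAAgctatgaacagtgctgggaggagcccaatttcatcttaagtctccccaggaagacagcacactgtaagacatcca
Ifi207, chr1:173741760-173742059, minus strand, match at -41: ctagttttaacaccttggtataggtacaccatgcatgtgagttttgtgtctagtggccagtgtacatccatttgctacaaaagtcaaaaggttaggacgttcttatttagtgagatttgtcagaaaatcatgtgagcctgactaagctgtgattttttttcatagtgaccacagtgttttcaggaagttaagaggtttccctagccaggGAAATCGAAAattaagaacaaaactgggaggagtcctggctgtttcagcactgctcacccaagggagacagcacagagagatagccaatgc
Ifi205, chr1:174031706-174032005, minus strand, matches at -134 and 24: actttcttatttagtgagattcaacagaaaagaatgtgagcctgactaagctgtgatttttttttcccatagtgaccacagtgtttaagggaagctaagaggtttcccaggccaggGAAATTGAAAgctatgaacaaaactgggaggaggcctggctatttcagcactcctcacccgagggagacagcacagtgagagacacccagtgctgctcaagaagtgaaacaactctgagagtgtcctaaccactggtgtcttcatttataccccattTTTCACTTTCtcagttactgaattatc
Irgm1, chr11:48871371-48871670, minus strand, overlapping matches at -30 and -24: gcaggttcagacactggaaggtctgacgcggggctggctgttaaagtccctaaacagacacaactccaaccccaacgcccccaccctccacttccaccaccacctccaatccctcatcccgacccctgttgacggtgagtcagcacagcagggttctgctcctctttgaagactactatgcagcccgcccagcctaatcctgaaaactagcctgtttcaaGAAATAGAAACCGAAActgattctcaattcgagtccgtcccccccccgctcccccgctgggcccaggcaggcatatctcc
Ifitm3, chr7:141010695-141010994, minus strand, matches at 3 and 20: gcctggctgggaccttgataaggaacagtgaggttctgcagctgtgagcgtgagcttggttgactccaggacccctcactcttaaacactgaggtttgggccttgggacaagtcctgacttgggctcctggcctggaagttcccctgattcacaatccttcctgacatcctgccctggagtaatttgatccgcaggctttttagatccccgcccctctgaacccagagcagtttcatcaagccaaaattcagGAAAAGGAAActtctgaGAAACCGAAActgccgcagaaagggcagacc
Ifit1 and Ifit3 hold a pair of matches in the same orientation upstream of the start, whereas Ifi203, Ifi207 and Irgm1 hold theirs within 41 bases of it. Ifi203 has another RefSeq start whose window holds no match.

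With Fbn1 wild-type, 14 of the 51 tested members rose with knockout and 2 fell, at an adjusted p under 0.05 in limma over all 14944 genes tested. The 16 calls are 31.4% of the members, against 18.8% of all genes, and the 14 that rose stand against 9.17% of all genes rising. The log2 difference was above 0 for 43 of 51 members, against 47.2% of all genes, and its median was 0.30, against -0.01 over all genes. For 23 members every knockout array lay above every control array, against 16.2% of all genes, and for 2 every knockout array lay below, against 19.6%. Together 49% of the members and 35.8% of all genes had groups that did not overlap. Against the 2 members that fell stand 9.66% of all genes. The count of calls fell to 9 without wild-type control 1, to 8 without wild-type control 2 and to 9 without wild-type knockout 1. The share of all genes called fell too, to 16%, 13.1% and 12.5%. The median difference was 0.17 without wild-type knockout 1. With array weights 23 members were called, against 23.1% of all genes.

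With the Fbn1 mutation, 9 members rose with knockout and 1 fell, together 19.6% of the members against 13.4% of all genes, with 7.66% of all genes rising and 5.77% falling. The log2 difference was above 0 for 47 of 51 members, against 57.1% of all genes, and its median was 0.21, against 0.03 over all genes. Every knockout array lay above every control array for 20 members, against 21.7% of all genes, and for 1 every knockout array lay below, against 14.1%. Together 41.2% of the members and 35.9% of all genes had groups that did not overlap. The count of calls fell to 5 without mutant control 1, mutant control 2 or mutant knockout 2, against 8.09%, 6% and 7.02% of all genes. It fell to 6 without mutant knockout 1 or with only the mutant arrays in the fit, against 7.76% and 8.44%. With array weights it was 16, against 24.7% of all genes. The median difference was 0.15 without mutant knockout 2. Of the members that rose, 8 rose in both genotypes (57.1% of those in the wild-type and 88.9% of those in the mutant), and Irf2bpl fell in both. Over all genes, 33.4% of those that rose in the wild-type and 39.9% of those that rose in the mutant did so in both. The 8 are 15.7% of the tested members, against 3.06% of all genes.

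**Figure D1:**
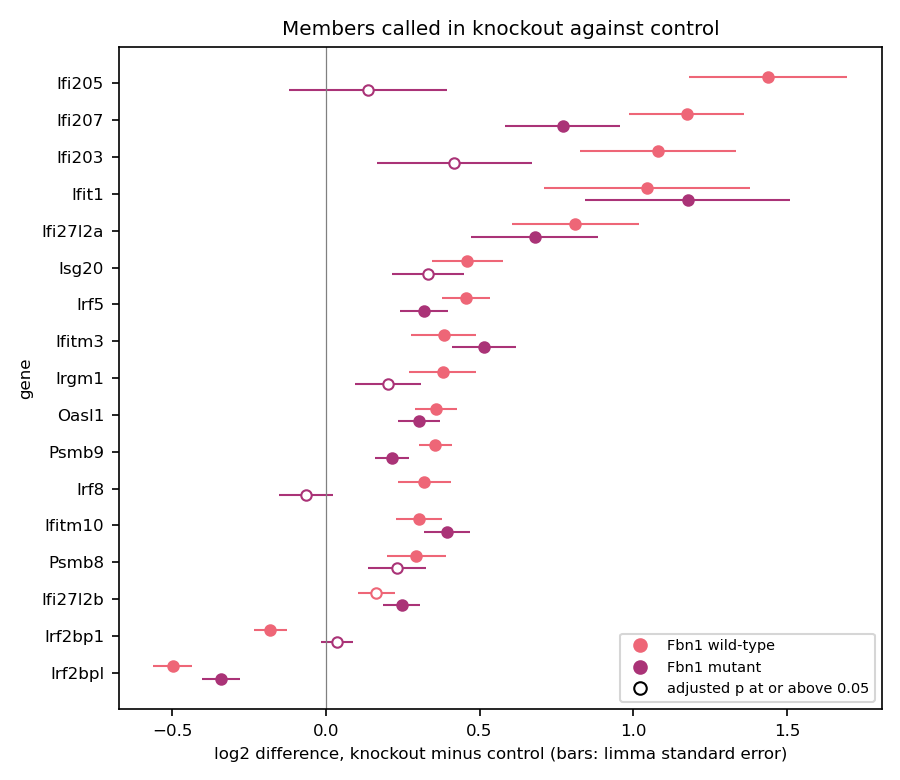
Log2 difference between knockout and control (x axis, bars are limma's standard error) for the members called in at least 1 genotype (y axis), with the Fbn1 wild-type and the Fbn1 mutant in separate colours and open symbols where the test was not passed. Irf2bpl and Irf2bp1 are the members that fell, and Ifi205 shows the widest gap between genotypes, 1.44 against 0.14.

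Among the transcription factors, Irf5, which acts downstream of Toll-like receptors in macrophages and dendritic cells, rose in both genotypes. Its log2 level was 9.11, 9.06 and 9.04 in wild-type controls against 9.56, 9.56 and 9.45 in wild-type knockouts, a rise of 0.46 ± 0.08 (adjusted p = 0.00152, limma). Mutant arrays gave 8.92, 9.26 and 9.18 in controls and 9.44, 9.37 and 9.50 in knockouts, a rise of 0.32 ± 0.08 (adjusted p = 0.0197). The groups did not overlap in either genotype. The call in the mutant was lost without mutant knockout 1 or mutant knockout 3, or with only the mutant arrays in the fit.

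Irf8, a factor that directs the development of monocytes and dendritic cells, was called in the wild-type and not in the mutant. Its level was 8.51, 8.75 and 8.57 in wild-type controls and 9.11, 8.92 and 8.77 in knockouts, a rise of 0.32 ± 0.09 (adjusted p = 0.0221, limma), and in the mutant it was 8.70, 8.77 and 8.58 in controls and 8.68, 8.63 and 8.55 in knockouts. The difference between these knockout effects was -0.38 ± 0.12 (adjusted p = 0.149), which did not pass the test. The call in the wild-type was lost without wild-type control 1, wild-type control 3 or wild-type knockout 1.

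Irf7, the factor that amplifies type I interferon production and is itself induced by it, gave the most scattered values of all members. Its level was 8.71, 8.90 and 9.41 in wild-type controls against 10.79, 9.01 and 9.29 in wild-type knockouts. Mutant arrays gave 8.77, 8.79 and 8.95 in controls and 9.64, 10.12 and 9.16 in knockouts. Wild-type knockout 1 stood 1.65 above the mean of the other arrays of its group and mutant knockout 2 stood 0.72 above its own. The differences of 0.69 ± 0.37 (adjusted p = 0.229, limma) and 0.80 ± 0.37 (adjusted p = 0.163) did not pass the test, although the groups did not overlap in the mutant. The pooled SD within groups was 0.57, larger than that of 99.9% of the genes tested.

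Stat2 and Irf9, which are parts of the ISRE-binding complex, differed by 0.24 ± 0.11 and 0.22 ± 0.13 in the wild-type and 0.19 ± 0.11 and 0.30 ± 0.13 in the mutant, and neither passed the test. Irf2, an antagonist of IRF1, and Irf3, the constitutive factor that starts interferon production, gave differences between -0.02 and 0.13. Irf1 has several probe sets, and their differences in the wild-type had opposite signs, 0.17 for the brighter, which is used here, and -0.11 for another.

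The members that fell with knockout, Irf2bpl and Irf2bp1, belong to the IRF2-binding proteins, which the symbol rule brought in by name. Irf2bpl, a nuclear protein with a RING-type domain, measured 10.49, 10.54 and 10.58 in wild-type controls against 9.91, 10.06 and 10.13 in wild-type knockouts. Mutant arrays measured 10.37, 10.39 and 10.30 in controls and 10.06, 9.93 and 10.04 in knockouts. It fell by 0.50 on the log2 scale in the wild-type (standard error 0.06, adjusted p = 0.000192, limma) and by 0.34 in the mutant (standard error 0.06, adjusted p = 0.00472), with no overlap of the groups, and both calls held under every alternative run. Irf2bp1, an IRF2 corepressor, went from 10.57, 10.53 and 10.56 to 10.31, 10.41 and 10.40 in the wild-type and fell by 0.18 (standard error 0.05, adjusted p = 0.0315), and it differed by 0.04 ± 0.05 in the mutant. Its call was lost when any 1 of wild-type controls 1, 2 and 3 and wild-type knockouts 1 and 3 was left out. It was also lost when quantile normalization was run again. Irf2bp2, of the same family, differed by -0.02 ± 0.07 and 0.21 ± 0.07 and did not pass the test (adjusted p = 0.887 and 0.0590).

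The interferon-inducible HIN-200 proteins, a cluster of nuclear DNA-binding proteins on mouse chromosome 1, gave the largest rises in the wild-type, and all 3 tested members were called there. Ifi205 measured 8.21, 8.57 and 7.45 in wild-type controls against 9.73, 9.47 and 9.34 in wild-type knockouts. It rose by 1.44 ± 0.26, or 2.71-fold (adjusted p = 0.00212, limma). In the mutant it measured 7.29, 7.35 and 7.49 in controls and 7.45, 8.02 and 7.06 in knockouts, with overlapping groups and a difference of 0.14 ± 0.26 that turned to -0.12 without mutant knockout 2. The highest of the 6 mutant arrays, at 8.02, lay below the lowest of the 3 wild-type knockout arrays, at 9.34.

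Ifi207 rose in both genotypes. Its level was 9.60, 9.57 and 9.77 in wild-type controls against 10.96, 10.54 and 10.96 in knockouts, and 9.20, 9.66 and 10.06 in mutant controls against 10.32, 10.69 and 10.22 in knockouts. The rises were 1.17 ± 0.19 (adjusted p = 0.000986, limma) and 0.77 ± 0.19 (adjusted p = 0.0199), and the groups did not overlap. The call in the mutant was lost without mutant control 1, mutant control 2 or mutant knockout 2, or with only the mutant arrays in the fit.

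Ifi203 measured 8.78, 8.66 and 9.12 in wild-type controls and 10.47, 9.29 and 10.04 in knockouts, a rise of 1.08 ± 0.25 (adjusted p = 0.0104, limma) with no overlap. In the mutant it measured 8.57, 8.95 and 9.08 in controls and 9.17, 9.64 and 9.03 in knockouts, and the difference of 0.42 ± 0.25 was not called. The other 6 HIN-200 members were below the filter. The genes of this family are close copies of each other, so the split of signal between them is uncertain.

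**Figure D2:**
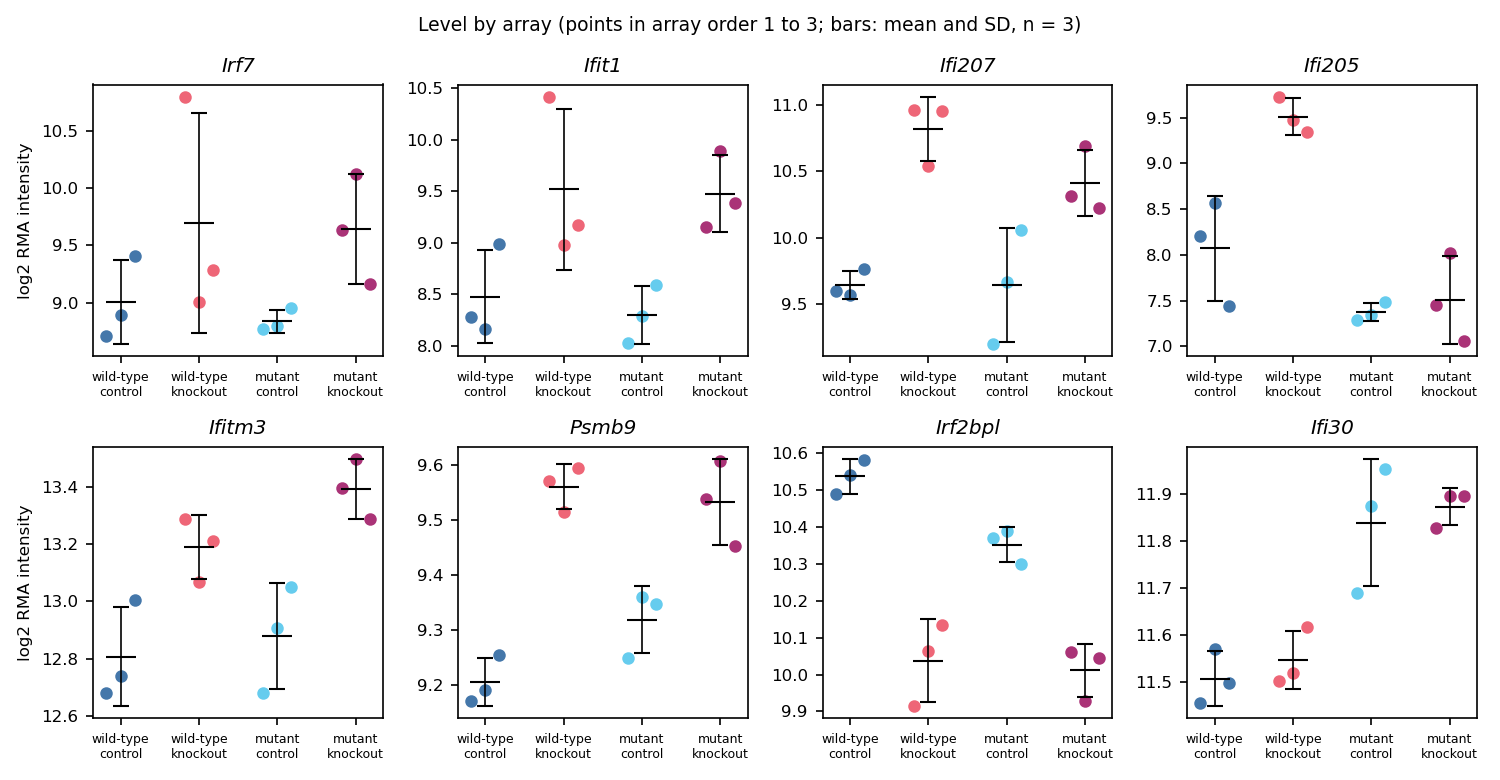
Log2 level (y axis) of Irf7, Ifit1, Ifi207, Ifi205, Ifitm3, Psmb9, Irf2bpl and Ifi30 on each of the 12 arrays (points, in array order from 1 to 3 within each of the 4 groups on the x axis), with the mean and SD of each group (n = 3) in black. Psmb9 and Irf2bpl separate knockout from control with tight groups, whereas Irf7 and Ifit1 show wild-type knockout 1 and mutant knockout 2 above the other knockout arrays of their groups.

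The IFIT proteins bind foreign RNA ends and block their translation. Ifit1 rose in both genotypes, from 8.27, 8.16 and 8.99 in wild-type controls to 10.42, 8.97 and 9.17 in knockouts, and from 8.03, 8.29 and 8.59 in mutant controls to 9.15, 9.89 and 9.39 in knockouts. The rises were 1.04 ± 0.33 (adjusted p = 0.0456, limma) and 1.18 ± 0.33 (adjusted p = 0.0366). In the wild-type the groups overlapped, since wild-type knockout 2 at 8.97 lay below wild-type control 3 at 8.99, and without wild-type knockout 1 the difference was 0.60 and not called. The wild-type call was lost under 14 of 22 alternatives, among them without wild-type control 1 or 2 or wild-type knockout 3, and the mutant call under 8 of 22, among them without mutant control 1 or 2 or any of the mutant knockouts.

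The other IFIT members were not called. Ifit3, which stabilises IFIT1 on RNA, measured 11.66 in wild-type knockout 1 and 10.67 and 10.97 in the other arrays of that group, against 10.63, 10.47 and 11.13 in controls. Ifit3b gave differences of 0.42 ± 0.18 and 0.21 ± 0.18, and Ifit2 differed by -0.01 ± 0.12 and 0.03 ± 0.12.

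The oligoadenylate synthetases sense double-stranded RNA and activate RNase L, and the Oasl proteins are their relatives. Oasl1, a repressor of Irf7 translation, rose in both genotypes. It measured 8.59, 8.74 and 8.83 in wild-type controls and 9.17, 9.01 and 9.05 in knockouts, and 8.75, 8.61 and 8.79 in mutant controls and 8.999, 9.03 and 9.04 in knockouts. The rises of 0.36 ± 0.07 (adjusted p = 0.00353, limma) and 0.30 ± 0.07 (adjusted p = 0.0154) had no overlap of the groups, and the mutant call was lost without mutant control 2. The differences of all 7 tested members of this family were above 0 in both genotypes, with medians of 0.36 and 0.29. Oas2 and Oasl2 had larger differences than Oasl1 but also larger spread, 0.70 ± 0.30 and 0.51 ± 0.23 in the wild-type and 0.59 ± 0.30 and 0.60 ± 0.23 in the mutant, and were not called. Oas2 reached 10.21 in wild-type knockout 1 and 8.9998 and 9.42 in the other arrays of that group.

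The large GTPases of the guanylate-binding and immunity-related families attack the vacuoles of intracellular pathogens and answer mainly to type II interferon. No guanylate-binding protein was called by limma in either genotype. The unadjusted p was under 0.05 for Gbp7 in both genotypes and for Gbp9 in the mutant, a limit for which no share of all genes was computed. Gbp7 measured 9.80, 9.72 and 9.77 in wild-type controls and 10.28, 9.99 and 10.16 in knockouts, and 9.63, 9.92 and 9.93 in mutant controls and 10.17, 10.51 and 9.88 in knockouts. It differed by 0.38 ± 0.13 (adjusted p = 0.0646) and 0.36 ± 0.13 (adjusted p = 0.0879). Gbp4 had no settled direction, with 9.37, 8.70 and 8.52 in wild-type controls and 8.32, 8.58 and 9.35 in knockouts. Irgm1, which also guides autophagy, rose in the wild-type by 0.38 ± 0.11 (adjusted p = 0.0281, limma), from 9.21, 9.08 and 9.24 to 9.83, 9.36 and 9.48, and by 0.24 without wild-type knockout 1, where the call was lost, as it was without wild-type control 1 or 2. Iigp1 differed by 0.73 ± 0.24 in the wild-type, just outside the threshold (adjusted p = 0.0515).

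Of the restriction factors, Ifitm3, a membrane protein that blocks the entry of enveloped viruses, rose in both genotypes. It measured 12.68, 12.74 and 13.004 in wild-type controls and 13.29, 13.07 and 13.21 in knockouts, and 12.68, 12.91 and 13.05 in mutant controls and 13.40, 13.50 and 13.29 in knockouts. The rises were 0.38 ± 0.10 (adjusted p = 0.0225, limma) and 0.51 ± 0.10 (adjusted p = 0.00857), without overlap of the groups. Ifitm10, a divergent member of the family, measured 8.76, 8.69 and 8.97 in wild-type controls and 9.03, 9.18 and 9.11 in knockouts, and 8.66, 8.64 and 8.74 in mutant controls and 9.06, 8.99 and 9.18 in knockouts. It rose by 0.30 ± 0.07 (adjusted p = 0.0142, limma) and 0.39 ± 0.07 (adjusted p = 0.00605). The mutant calls of both held under every alternative run, while in the wild-type that of Ifitm3 was lost without wild-type control 1 or 2 or wild-type knockout 1 or 3, and that of Ifitm10 without wild-type control 2 or wild-type knockout 2. Ifitm1, Ifitm2, Ifitm5 and Ifitm7 gave differences between -0.05 and 0.14 and were not called. A second probe set of Ifitm1, too dim to be used (mean 6.81), differed by 0.17 in the wild-type and 0.23 in the mutant. Its groups did not overlap in the mutant, and no test was run on it.

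Isg20, an exonuclease that degrades viral RNA, rose in the wild-type from 9.41, 9.36 and 9.52 to 10.20, 9.71 and 9.77, by 0.46 ± 0.12 (adjusted p = 0.0158, limma). The call was lost without wild-type control 2. In the mutant its difference of 0.33 ± 0.12 was not called (adjusted p = 0.0761). Ifi27l2a, a small hydrophobic protein, measured 8.45, 8.64 and 9.22 in wild-type controls and 9.67, 9.32 and 9.74 in knockouts, and 8.46, 8.64 and 9.07 in mutant controls and 9.26, 9.73 and 9.22 in knockouts. It rose by 0.81 ± 0.21 in the wild-type (adjusted p = 0.0165) and by 0.68 ± 0.21 in the mutant (adjusted p = 0.0484). Its call was lost without wild-type control 1 or 2 or wild-type knockout 1 or 3 in the wild-type. The mutant call was lost under 14 of 22 alternatives, among them without mutant control 1 or 2 or any of the mutant knockouts. Its neighbour in name Ifi27l2b rose in the mutant from 8.91, 8.89 and 9.06 to 9.12, 9.19 and 9.28, by 0.25 ± 0.06 (adjusted p = 0.0212, limma). That call was lost without mutant control 1 or 2 or mutant knockout 2 or 3, or with only the mutant arrays in the fit. Ifi27 differed by -0.11 ± 0.09 and 0.10 ± 0.09.

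Psmb8 and Psmb9 replace the constitutive catalytic subunits of the proteasome and shift its cleavage towards peptides that fit class I molecules. Psmb9 measured 9.17, 9.19 and 9.25 in wild-type controls and 9.57, 9.52 and 9.60 in knockouts, and 9.25, 9.36 and 9.35 in mutant controls and 9.54, 9.61 and 9.45 in knockouts. It rose by 0.36 ± 0.05 (adjusted p = 0.00072, limma) and by 0.21 ± 0.05 (adjusted p = 0.0232) with no overlap. The latter call was lost without mutant control 1, mutant knockout 1 or mutant knockout 2. It was also lost with each array centred on its median or with only the mutant arrays in the fit. Psmb8 rose from 8.11, 8.01 and 8.11 to 8.55, 8.29 and 8.27 in the wild-type, by 0.29 ± 0.09 (adjusted p = 0.0464), a call lost under 15 of 21 alternatives, among them without any 1 of the wild-type arrays, and differed by 0.23 ± 0.09 in the mutant (adjusted p = 0.115).

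Usp18, the protease that removes ISG15 from proteins and damps the type I receptor, measured 8.99, 9.29 and 9.66 in wild-type controls against 10.70, 9.37 and 9.64 in wild-type knockouts, and 9.11, 9.41 and 9.46 in mutant controls against 9.92, 10.57 and 9.71 in mutant knockouts. The groups overlapped in the wild-type and not in the mutant. Its differences of 0.59 ± 0.30 (adjusted p = 0.203, limma) and 0.74 ± 0.30 (adjusted p = 0.117) did not pass the test. The sensors Ifih1 and Zbp1 detect double-stranded RNA and left-handed nucleic acid. Zbp1 measured 8.42, 8.23 and 8.62 in wild-type controls and 9.55, 8.58 and 8.79 in knockouts. The differences of Ifih1 and Zbp1 were 0.41 ± 0.17 and 0.55 ± 0.21 in the wild-type and 0.28 ± 0.17 and 0.16 ± 0.21 in the mutant, and none was called.

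**Figure D3:**
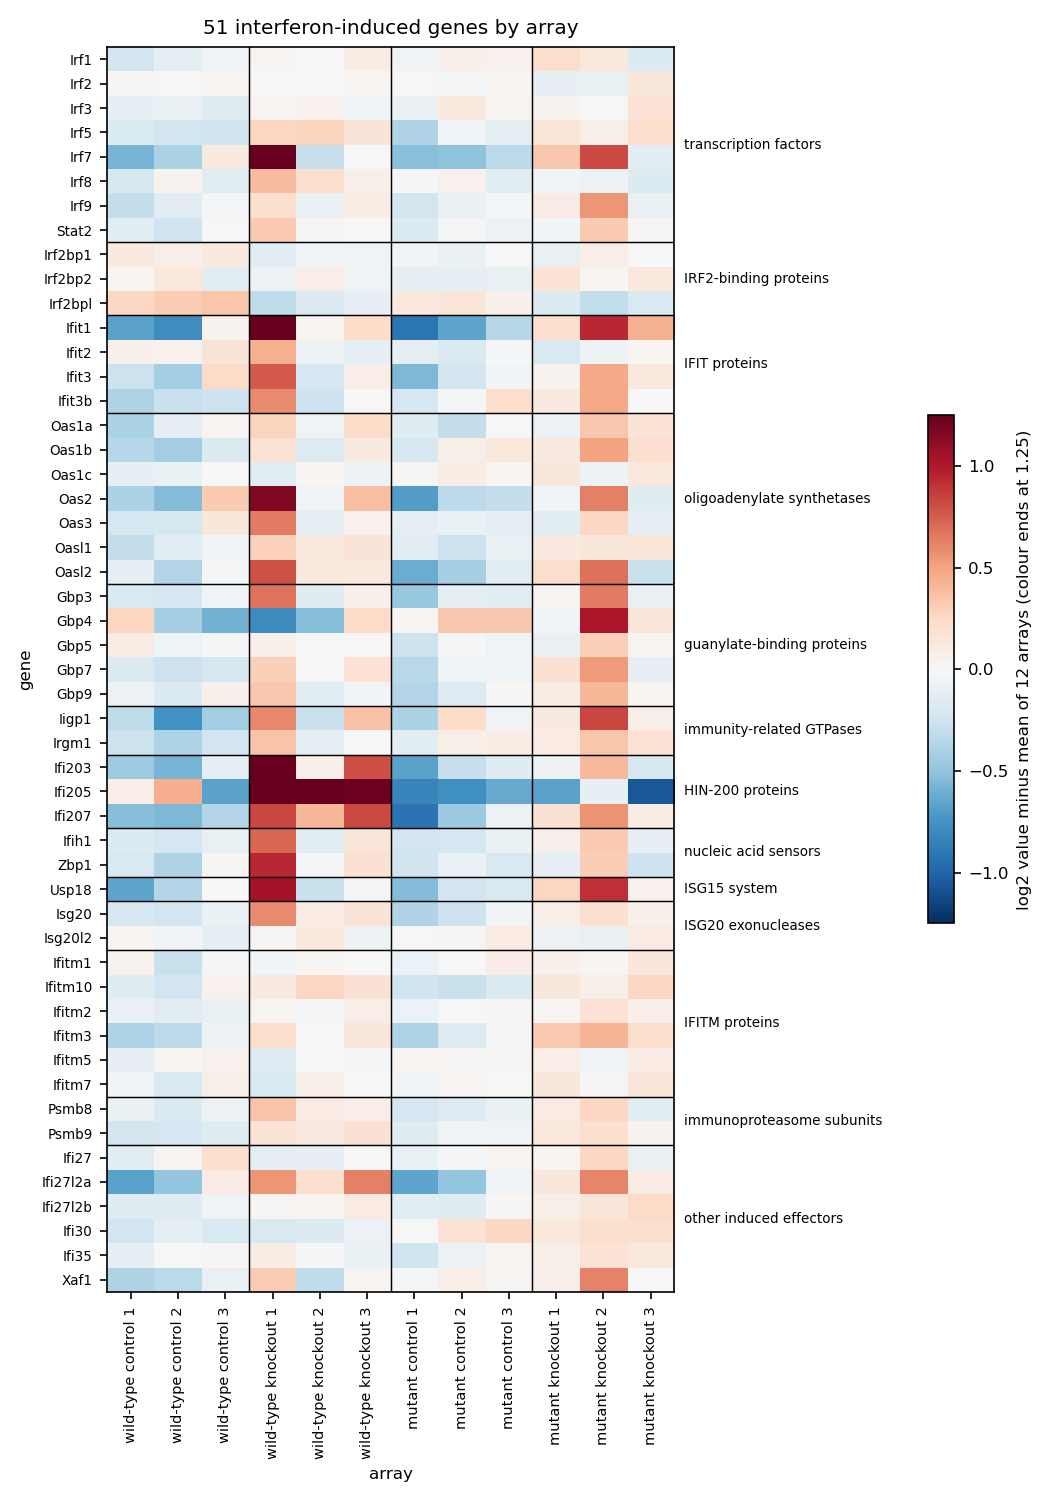
Log2 level of each of the 51 tested members (rows, ordered by role) on each of the 12 arrays (columns), as the difference from that gene's mean over all arrays (colour scale in log2 units). Wild-type knockout 1 and mutant knockout 2 are the warmest columns, and Irf2bpl is cooler in the knockout columns.

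The members did not rise evenly over the knockout arrays. Wild-type knockout 1 was the highest array of its group for 31 of 51 members (60.8%), whereas it was so for 18.9% of all genes. Mutant knockout 2 was the highest of its group for 35 members (68.6%), against 19.6% of all genes. The controls were uneven too: wild-type control 3 was highest for 37 members (72.5%, against 34.7% of all genes) and mutant control 3 for 35 (68.6%, against 33%), while mutant control 1 was highest for 1. In wild-type control 3 and mutant control 3 the score of adipocyte markers was also the highest of its group (0.24 and 0.52), and so were those of macrophage (-0.20 and -0.04), endothelial (-0.12 and -0.03), fibroblast (0.0025 and 0.03) and dendritic cell markers (-0.005 and 0.0093). The T cell score, over 4 genes, was 0.56 in mutant control 3 against 0.02 and -0.06 in the other mutant controls, and -0.03 in wild-type control 3, below 0.07 in wild-type control 1. Their part in the order of the controls was not tested. The median pooled SD within groups was 0.16 over the members and 0.08 over all genes.

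To see which members these were, the excess of an array was taken as its log2 level minus the mean of the other arrays of its group, and set against 0.5, a limit chosen with the values known. Wild-type knockout 1 exceeded it for 14 members, against 0.301% of all genes, and mutant knockout 2 for 12, against 0.368% of all genes. Wild-type control 3 did so for 6 members, against 0.455%. In the other direction, wild-type knockout 2 lay more than 0.5 below the other arrays of its group for 11 members, against 0.274% of all genes, and these 11 were among the 14 of wild-type knockout 1. Mutant knockout 3 lay that far below for 4, against 0.428%. Counted against the higher of the other arrays instead of their mean, wild-type knockout 1 was more than 0.5 above for 12 members, mutant knockout 2 for 7 and wild-type control 3 for 5, against 0.181%, 0.161% and 0.294% of all genes. The 8 members more than 0.5 above the mean of the other arrays in both wild-type knockout 1 and mutant knockout 2 were Gbp3, Ifi203, Ifit1, Iigp1, Irf7, Oas2, Oasl2 and Usp18, which are 57.1% of the 14 and 66.7% of the 12. Ifih1, Ifit2, Ifit3, Ifit3b, Oas3 and Zbp1 did so in wild-type knockout 1 alone, and Gbp4, Ifi205, Irf9 and Xaf1 in mutant knockout 2 alone. Of the members called in both genotypes, Ifit1 is in this list, while Irf5 had an excess of 0.05 and -0.11, Psmb9 of 0.02 and 0.11, and Ifitm10 of -0.11 and -0.13.

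**Figure D4:**
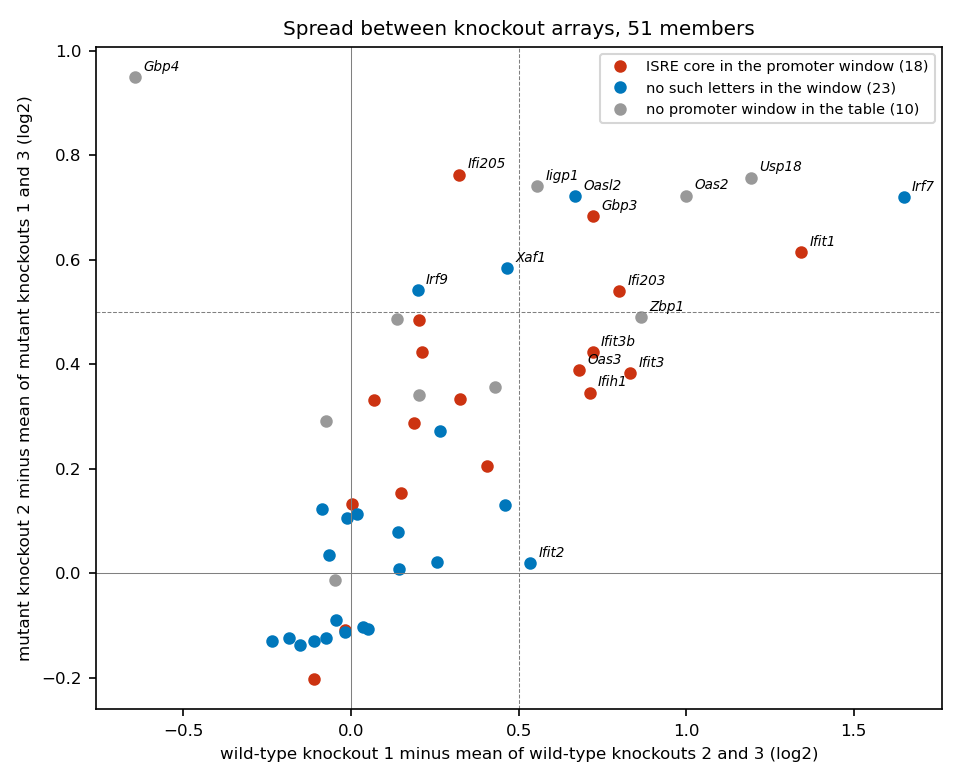
Each of the 51 tested members as a point, with the log2 excess of wild-type knockout 1 over the mean of the other arrays of its group on the x axis and that of mutant knockout 2 on the y axis, coloured by whether the promoter window holds an ISRE core, holds none or is missing from the table (dashed lines at 0.5). Irf7 lies farthest right at 1.65, and 8 members are over 0.5 on both axes.

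The ISRE core did not mark the uneven members alone. It was found in 8 of the 13 members with an excess over 0.5 in either array that had a promoter window, and in 10 of the 28 other tested members with one. The GAS core was found in 1 of the 13 and in 11 of the 28. Irf7 and Psmb9 held no ISRE core in the window used, which says only that these letters are not in it.

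Genes of the pathway outside the member list were read from lists by role. Beside their counts, 9.17% of all genes rose and 9.66% fell in the wild-type, and 7.66% rose and 5.77% fell in the mutant. Of 8 tested interferon ligand genes, Ifna5 rose in the wild-type by 0.17 ± 0.06 (adjusted p = 0.0484, limma) and none was called in the mutant (adjusted p = 0.0577 for Ifna5). Ifng was tested and not called in either genotype, with group means between 7.47 and 7.62, and Ifnb1 was below the filter. Of 9 receptor and kinase genes, Ifnar2, Ifngr1 and Il10rb rose in the wild-type, Ifnar2 by 0.27 ± 0.05 (adjusted p = 0.0013), and Ifngr2 fell by 0.27 in the mutant (standard error 0.06, adjusted p = 0.0166). Of 19 genes of nucleic acid sensing, 8 rose and 1 fell in the wild-type and 4 rose in the mutant. The one that fell was Mavs, the mitochondrial adaptor of RNA sensing, which fell by 0.20 (standard error 0.06, adjusted p = 0.0363, limma). The endosomal RNA receptor Tlr8 rose by 1.20 ± 0.08 in the wild-type and 0.28 ± 0.08 in the mutant, and Sting1, the adaptor of cytosolic DNA sensing, by 0.68 ± 0.08 and 0.39 ± 0.08.

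Of 38 tested interferon-induced genes with other names, 15 rose and 0 fell in the wild-type (median 0.33) and 9 rose and 0 fell in the mutant (median 0.23). They included Slfn9, of the Schlafen family, which rose by 0.69 ± 0.09 and 0.55 ± 0.09, the necroptosis effector Mlkl, by 0.66 ± 0.08 and 0.41 ± 0.08, and the membrane protein Ly6e, by 0.45 ± 0.14 and 0.60 ± 0.14. Of 13 genes of antigen presentation, 5 rose in the wild-type, among them the class I molecule H2-M3 and the proteasome activator Psme2, and 2 in the mutant, Psme1 and Psmb10. Of 15 negative regulators, 5 rose in the wild-type and 1, the cytokine-induced suppressor Cish, in the mutant. Of all genes, 9.17% rose in the wild-type and 7.66% in the mutant.

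Markers of macrophages also rose with knockout. For this and the other marker lists, the shares of all genes are 9.17% rising and 9.66% falling in the wild-type. In the mutant they are 7.66% and 5.77%. Of 16 macrophage markers on the array, Aif1 was below the filter. Of the 15 tested, 14 rose in the wild-type (median 0.98) and 8 in the mutant (median 0.36). Their score, the mean log2 difference from each gene's mean over all arrays, was -0.48 to -0.20 in wild-type controls, 0.42 to 0.55 in wild-type knockouts, -0.43 to -0.04 in mutant controls and 0.15 to 0.16 in mutant knockouts. The same score over the 51 members was -0.21 to -0.05, 0.0009 to 0.36, -0.26 to -0.04 and 0.02 to 0.31. Between mutant and wild-type knockouts the lists parted. There 6 of 15 macrophage markers were lower in the mutant and 0 higher (median -0.40), while 1 of 51 members was lower and 1 higher (median 0.006). Of all genes 3.16% were lower and 2.8% higher. The difference of knockout effects was called below 0 for 4 of 15 macrophage markers (median -0.56), against 0 of 51 members (median -0.02) and 1.08% of all genes. Within the knockout groups the 2 scores put the arrays in different orders, though wild-type knockout 2 was the lowest of its group for both. The macrophage score was 0.51, 0.42 and 0.55 in wild-type knockouts, where the members gave 0.36, 0.0009 and 0.13. In mutant knockouts it was nearly level at 0.15, 0.16 and 0.16, where the members gave 0.05, 0.31 and 0.02. Within the control groups both scores put the arrays in the same order. Wild-type controls gave -0.455, -0.48 and -0.20 for macrophage markers and -0.19, -0.21 and -0.05 for the members. Mutant controls gave -0.43, -0.35 and -0.04 for macrophage markers and -0.26, -0.12 and -0.04 for the members. The interferon-induced genes with other names gave 0.37, 0.04 and 0.14 in wild-type knockouts and 0.08, 0.26 and 0.01 in mutant knockouts. In each of these groups the arrays had the same order as for the members. Fcgr1 is in both this list and the macrophage list, so the lists are not wholly separate. Endothelial markers also moved, with 4 of 8 rising in each genotype (median 0.54 and 0.39), among them Cdh5, the cadherin of endothelial junctions. Of 6 fibroblast markers 4 rose in the wild-type (Lum, Col1a1, Dpt and Pi16, list median 0.31) and 1, Pi16, in the mutant (list median -0.10). Of 8 smooth muscle markers 3 fell in the wild-type (Smtn, Lmod1 and Cald1, list median -0.06), and in the mutant Cald1 fell and Des rose (list median 0.0046). Of 4 tested dendritic cell markers Flt3 rose in the wild-type and none was called in the mutant. No adipocyte marker of 4 tested was called in either genotype. Of the T cell, B cell, NK cell and neutrophil markers only 4 of 8, 2 of 5, 1 of 6 and 2 of 6 were bright enough to test, and none of these was called in the wild-type. In the mutant Cd79b of the B cell list rose by 0.15 ± 0.05, Prf1 of the NK cell list by 0.20 ± 0.05 and Mpo of the neutrophil list by 0.21 ± 0.06 (adjusted p = 0.0463, 0.0240 and 0.0446, limma), and no T cell marker was called. The part of these cell types in the members' rise was not tested.

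**Figure D5:**
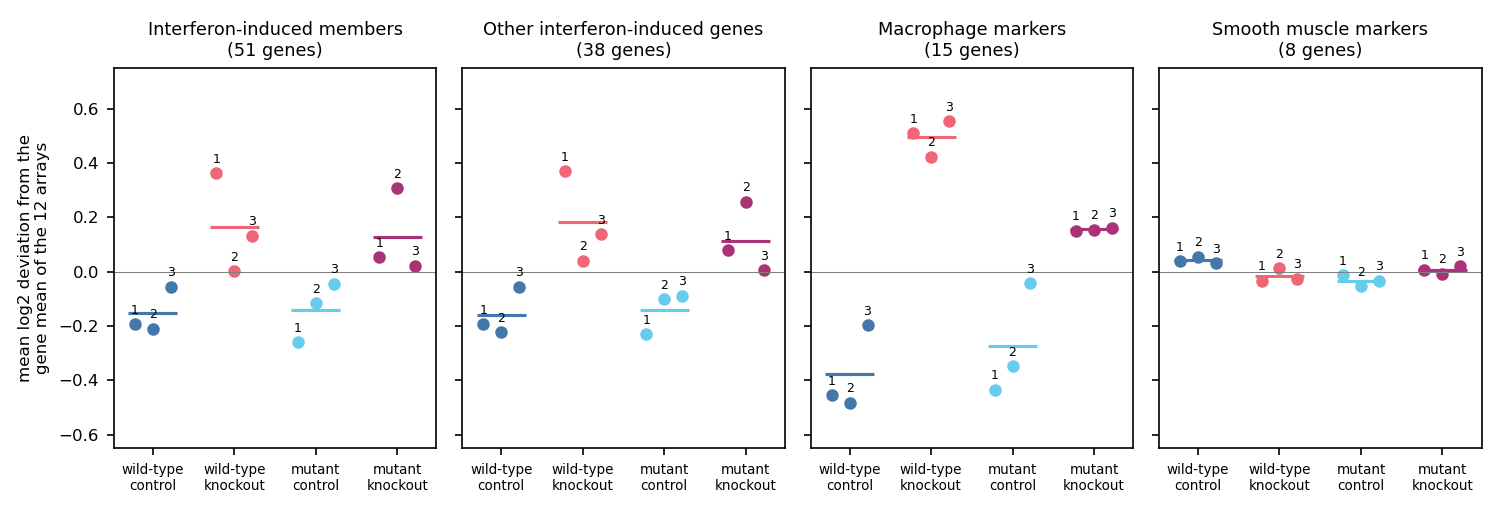
Mean log2 difference from each gene's mean over all arrays (y axis) on each array (points, numbered, with group means as lines), by group (x axis), for the members, the interferon-induced genes with other names, the macrophage markers and the smooth muscle markers. The members are highest in wild-type knockout 1 (0.36) and mutant knockout 2 (0.31), while the macrophage markers lie between 0.42 and 0.55 in wild-type knockouts and between 0.15 and 0.16 in mutant knockouts.

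Few members, and few of all genes, were called between the Fbn1 genotypes. In controls 1 of 51 rose and 0 fell (1.96%, against 6.49% of all genes, of which 3.17% rose and 3.33% fell). The median difference was 0.01, against -0.02 over all genes, with 28 members above 0, against 42.2% of all genes. Mutant controls lay wholly above wild-type controls for 7 members, against 11.4% of all genes, and wholly below for 3, against 16.6%, together 19.6% of the members against 28.1%. In knockouts 1 member rose and 1 fell (3.92%, against 5.96% of all genes, of which 2.8% rose and 3.16% fell), and 27 differences were above 0, against 55.3% of all genes. Mutant knockouts lay wholly above wild-type knockouts for 1 member, against 14.4% of all genes, and wholly below for 2, against 11.9%, together 5.88% of the members against 26.3%. The member that rose was Ifi30 in both, a lysosomal thiol reductase that prepares antigens for class II molecules. Ifi30 measured 11.46, 11.57 and 11.50 in wild-type controls, 11.69, 11.87 and 11.95 in mutant controls, 11.50, 11.52 and 11.62 in wild-type knockouts and 11.83, 11.90 and 11.89 in mutant knockouts. It was higher in the mutant by 0.33 ± 0.07 in controls (adjusted p = 0.0129, limma) and by 0.33 ± 0.07 in knockouts (adjusted p = 0.0124), without overlap, and knockout itself moved it by 0.04 ± 0.07 and 0.03 ± 0.07. The call in controls was lost without mutant control 2 or with only the control arrays in the fit, and that in knockouts without wild-type knockout 1. The count of calls was 0 in controls without mutant control 2 and 2 without wild-type control 3, against 2.34% and 3.71% of all genes. It was 1 in knockouts without wild-type knockout 1, against 3.06%.

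The member that fell was Ifi205, which was lower in mutant than in wild-type knockouts, with a log2 difference of -2.00 (standard error 0.26, adjusted p = 0.000929, limma), 4.00-fold lower. In controls the difference of -0.70 ± 0.26 was not called (adjusted p = 0.126), with wild-type control 3 at 7.45 among the mutant controls. Whether knockout acted differently in the 2 genotypes was tested gene by gene as the difference of the knockout effects. The difference was above 0 for 22 of 51 members, against 59.5% of all genes. No member passed by limma, against 1.48% of all genes (0.401% above and 1.08% below). The members with limma's unadjusted p under 0.05 were Ifi205 with -1.30 ± 0.36 (adjusted p = 0.107), Irf8 with -0.38 ± 0.12, Irf2bp1 with 0.22 ± 0.07 and Irf2bp2 with 0.23 ± 0.10. The share of all genes under that limit was not computed. The members called in the wild-type and not in the mutant are thus not shown to differ between genotypes.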

How the data were processed

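Intensity values on a linear scale were deposited by the authors, summarised per probe set with RMA in Partek 6.4, per the submitters' processing notes; they were taken to log2 here, and all levels and differences are log2 values of the deposited intensities. Probe sets with 1 gene symbol in the platform annotation were kept (21789 of 35556), and for each gene the one with the highest mean was used. Genes with a mean log2 level under 7.31, the 25th percentile of those probe sets, were left out, and 14944 remained. limma 3.58.1 (R 4.3.3) was fitted to all 12 arrays with 1 mean per group (8 residual degrees of freedom), with Benjamini-Hochberg adjustment over all genes tested and a threshold of 0.05. The method was tested on simulated data. Levels are given per array and changes as the difference of group means ± limma's standard error. The descriptions of some knockout arrays name Tgfbr3 or Tgfbr4, while their titles and source names give Tgfbr2, which was used. By rule, members called in a comparison and the member of smallest p in each role were given array by array; Irf7, Ifit3, Oas2 and Gbp4 were added after their values were seen. From other lists up to 4 genes of smallest p in a comparison were named. The members and the lists were chosen with earlier results of these data known. Genome coordinates are those of the RefSeq promoter table only. Alternatives to these choices are given with the closing observations.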

Additional observations from a re-analysis of the deposited data

Results flagged for a closer look

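Some signal lay in probe sets that the comparisons did not use. Of the 7 probe sets annotated to several genes with a member among them, 5 had knockout arrays wholly above control arrays in at least 1 genotype. Among the genes tested, 16.2% lay wholly above in the wild-type and 21.7% in the mutant. The share in at least 1 genotype was not computed. The log2 difference was 1.19 in the wild-type for the probe set of Ifi211 and Ifi204 and 0.71 in the wild-type for that of Olfr56 and Ifi47. It was 0.38 in the mutant for that of Irgm2 and Igtp and 0.44 in the mutant for that of Oas1a and Oas1g. The probe set of Gbp2 and Gbp2b differed by 0.42 with Fbn1 wild-type and 0.50 with the mutation. Which of the annotated genes gave the signal cannot be read from these probe sets, and no test was run on them.

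Among the 20 members below the brightness filter, Ifi209, a further HIN-200 gene, differed by 0.68 in the wild-type and passed limma's test in a fit without the filter (adjusted p = 0.0327). Ifitm6 did so with 0.37 in the wild-type (adjusted p = 0.0037) and 0.27 in the mutant (adjusted p = 0.0327). No other of the 20 was called with knockout in that fit. Of all genes in it, 13.5% were called in the wild-type and 9.83% in the mutant. The groups hold 3 arrays each, too few for a test of single outlying arrays.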

How the results depend on the processing

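Each choice of processing was changed in turn: the filter, the normalization, the centring, the choice among a gene's probe sets, the model's variance settings, the arrays in the fit and each array left out. Of the 29 called pairs of gene and comparison, 0 changed direction and 11 kept their call under every alternative that gave a value. Ifi205, Irf8 and Psmb8 are too dim to have one with the filter at the median, and a fit with only the compared groups cannot differ from the full fit for the difference of knockout effects, which uses all 4, so it was not run there. With 1 array left out, the number of members called with knockout ranged from 8 to 20 in the wild-type and from 5 to 12 in the mutant. The share of all genes called ranged from 12.3% to 20% and from 6% to 14.4%. For the Fbn1 mutation the number ranged from 0 to 2 in controls, against 2.34% to 7.18% of all genes. In knockouts it ranged from 1 to 3, against 2.56% to 6.82%. It stayed at 0 for the difference of the knockout effects, against 0.716% to 1.35%. With array weights 23 members were called in the wild-type and 16 in the mutant, against 23.1% and 24.7% of all genes. With only the compared groups in the fit 6 were called in the mutant, against 8.44%. For the Fbn1 mutation in controls 3 were called with array weights, against 10.5%. There 0 were called with only the compared groups, against 3.21%, and 0 without both mutant control 3 and mutant knockout 1, against 4.8%. In knockouts 1 was called with the filter at the median, against 9.29%. The knockout difference of Ifi205 in the mutant, not called, turned to -0.12 (adjusted p = 0.795, limma) without mutant knockout 2 and lay between that and 0.36 when other arrays were left out; the cause was not tested. The arrays carry replicate numbers 1 to 3, but only 3 of 12 pairs of same-numbered arrays had deviations correlated above 0.1 (range -0.21 to 0.24) and 6 of 12 arrays correlated best with their own number, so the numbers were not taken to pair the arrays. With the replicate number as a block, 15, 9, 1, 3 and 0 members were called in the 5 comparisons. The number of arrays limits the precision, and 20 of 71 members were too dim to be tested.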
